A study of Mus musculus with 9 samples.

Results

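Transforming growth factor beta (TGF-beta) and activin are secreted proteins of one family, and the RNA levels of 10 genes of this signalling system were followed in the mouse lung after injurious ventilation. The 10 genes were chosen by symbol out of 23713 Ensembl gene IDs in the table. No rule on their measured values was used, but earlier results of these data were known. All 10 were found and passed the filter on low values. They were the ligands Tgfb1, Tgfb2, Tgfb3 and Inhba, the latency and activation genes Ltbp4 and Thbs1, the receptors Tgfbr1 and Tgfbr2, and the inhibitors Smad7 and Bambi. RNA sequencing was carried out on whole lung of male C57BL/6 mice, 6 to 8 weeks old, with 3 mice a group and 1 library a mouse. Control mice were intubated and not ventilated. Mice with ventilator-induced lung injury (VILI) were given 40 breaths/min of 20 ml/kg each over 4 hours, and their lungs were taken straight afterwards (VILI 0 hours) or after 6 hours of recovery (VILI 6 hours). Ketamine and xylazine were the anesthetics, pancuronium was given during ventilation, and whether control mice received the relaxant is not given in the sources used here.

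TGF-beta is secreted in a latent complex, bound to its own propeptide and often to a latent TGF-beta binding protein in the matrix, and has to be released by integrins, thrombospondin 1 or proteases before it can act. The active ligand brings together a type II and a type I receptor kinase, and the type I receptor phosphorylates SMAD2 and SMAD3, which enter the nucleus with SMAD4. SMAD7, itself a target gene of the pathway, and the decoy receptor BAMBI dampen the signal, and in the lung the pathway is known for matrix production, epithelial permeability and repair.

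Levels are given in FPKM, the number of sequenced fragments scaled to transcript length and library size, summed over the transcript rows of a gene, so that genes can be compared per length. The FPKM of a library summed to between 366400 and 388500, and the number of reads behind a value is not known from the table. Differences are log2 fold changes of FPKM + 0.1, tested with limma over all 17131 genes with a mean of at least 0.1 FPKM. A gene is said to have risen or fallen where the unadjusted two-sided P was under 0.05, the threshold of the study, and the Benjamini-Hochberg adjusted p over all genes tested stands beside it. Both VILI groups were set against the same 3 control libraries, so the comparisons with control are not independent of each other. The markers of alveolar type 2 cells, alveolar type 1 cells, endothelium and fibroblasts were present in all 9 libraries.

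Libraries of both ventilated groups stood apart in marker levels. VILI 6 hours replicate 1 had a summed level of 3 erythroid markers of 311.4 FPKM, against 2090 to 3558 FPKM in the other 8 libraries. Its summed level of 3 mesothelial markers was 76.7 FPKM, against 28.3 to 39.1 FPKM elsewhere. The 10 genes are therefore also given without it. VILI 0 hours replicate 3 had a summed level of 5 cardiac muscle markers of 270.0 FPKM, against 122.4 to 152.1 FPKM in the other 8 libraries, and it was also the lowest of the 9 libraries for Tgfb1, Tgfb2 and Smad7. When it was left out, VILI 0 hours differed from control by -0.00789 for Tgfb1, by -0.34 for Tgfb2, which still passed, and by -0.34 for Smad7, which did not. The part of these markers in the results was not tested. Between VILI and control libraries, the summed level of 6 neutrophil markers separated fully, with 45.6 to 53.3 FPKM in control, 541.1 to 967.2 FPKM in VILI 0 hours and 446.0 to 1862 FPKM in VILI 6 hours, and all 6 markers rose in both comparisons. The part of this change in cell makeup in the results on the 10 genes was not tested, and in whole lung fewer cells of a type cannot be told apart from less RNA per cell.

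The promoters of the most abundant ligand, Tgfb1, of the ligand that fell, Tgfb2, and of the receptor that rose, Tgfbr2, are shown because their levels moved differently. Each is the 250 bases before the start site of a RefSeq transcript (build GRCm38.p6), written 5′ to 3′ on the gene's strand, with capitals marking a match to a motif. They lie at chr7:25686752-25687001 on the plus strand, chr1:186705990-186706239 on the minus strand and chr9:116175364-116175613 on the minus strand. RefSeq windows were matched for 6 of the 10 genes.
Tgfb1 promoter: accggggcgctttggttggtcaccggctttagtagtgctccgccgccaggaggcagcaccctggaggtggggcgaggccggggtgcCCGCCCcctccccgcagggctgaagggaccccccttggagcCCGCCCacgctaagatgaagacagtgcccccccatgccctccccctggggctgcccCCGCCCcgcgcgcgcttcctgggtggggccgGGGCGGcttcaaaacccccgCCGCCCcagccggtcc
Tgfb2 promoter: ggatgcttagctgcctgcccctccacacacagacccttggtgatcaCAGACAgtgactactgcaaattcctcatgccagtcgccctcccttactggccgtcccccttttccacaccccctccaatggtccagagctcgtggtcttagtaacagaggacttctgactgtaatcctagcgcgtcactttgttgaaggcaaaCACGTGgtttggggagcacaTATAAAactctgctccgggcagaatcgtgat
Tgfbr2 promoter: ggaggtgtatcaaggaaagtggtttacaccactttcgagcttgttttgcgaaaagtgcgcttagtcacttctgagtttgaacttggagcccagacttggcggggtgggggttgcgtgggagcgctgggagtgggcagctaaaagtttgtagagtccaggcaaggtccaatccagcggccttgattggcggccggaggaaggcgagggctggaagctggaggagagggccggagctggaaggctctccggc
The motifs were searched on both strands. The Tgfb1 window holds 5 GC boxes (GGGCGG) and has a GC content of 75.2%. A GC box is present in 32.7% of the 32851 RefSeq windows of this length. The Tgfb2 window has a GC content of 53.6% and holds a TATA box (TATAAA, in 12.4% of windows), an E-box (CACGTG, in 6.02%) and a SMAD element (CAGACA, in 17.1%). None of these letters is in the Tgfbr2 window, whose GC content is 58.4%, and neither are those of the palindromic SMAD element (GTCTAGAC, in 0.167% of windows), the AP-1 site (TGACTCA, in 4.46%) or the cAMP response element (TGACGTCA, in 1.55%). No matches overlap in these 3 windows. A match describes the letters only.

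Directly after ventilation, Tgfb2 and Smad7 fell and none of the 10 genes rose. At VILI 6 hours, Thbs1 and Tgfbr2 were higher and Bambi was lower than in control, and all 3 had also moved the same way from VILI 0 hours. Smad7 rose between the ventilated groups, with a mean at VILI 6 hours of 31.3 FPKM beside 32.9 FPKM in control. Against control, VILI 0 hours had 2 of the 10 genes past the threshold (0 rose, 2 fell), where 17.1% of all genes tested did so (7.02% higher, 10.1% lower). With VILI 6 hours against control 3 passed (2 rose, 1 fell), where 21.0% of all genes did (7.91% higher, 13.1% lower). Between the ventilated groups 4 passed (3 rose, 1 fell), where 10.3% of all genes did (5.02% higher, 5.25% lower). No gene of the 10 had an adjusted p under 0.05 in any comparison, where 0.304%, 0.753% and 0.0% of all genes did. The ranges of the groups did not overlap for 0 higher and 2 lower genes of the 10 in the first comparison (12.3% and 23.2% of all genes), 2 and 2 in the second (9.53% and 15.9%) and 2 and 1 in the last (6.19% and 6.55%). The median log2 fold change of the 10 genes was -0.02, -0.0048 and 0.22, beside -0.08, -0.10 and -0.03 over all genes tested. In the comparisons with control the share of the 10 genes that passed was near that of all genes. Between the ventilated groups it was higher, and that difference was not tested.

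**Figure D1:**
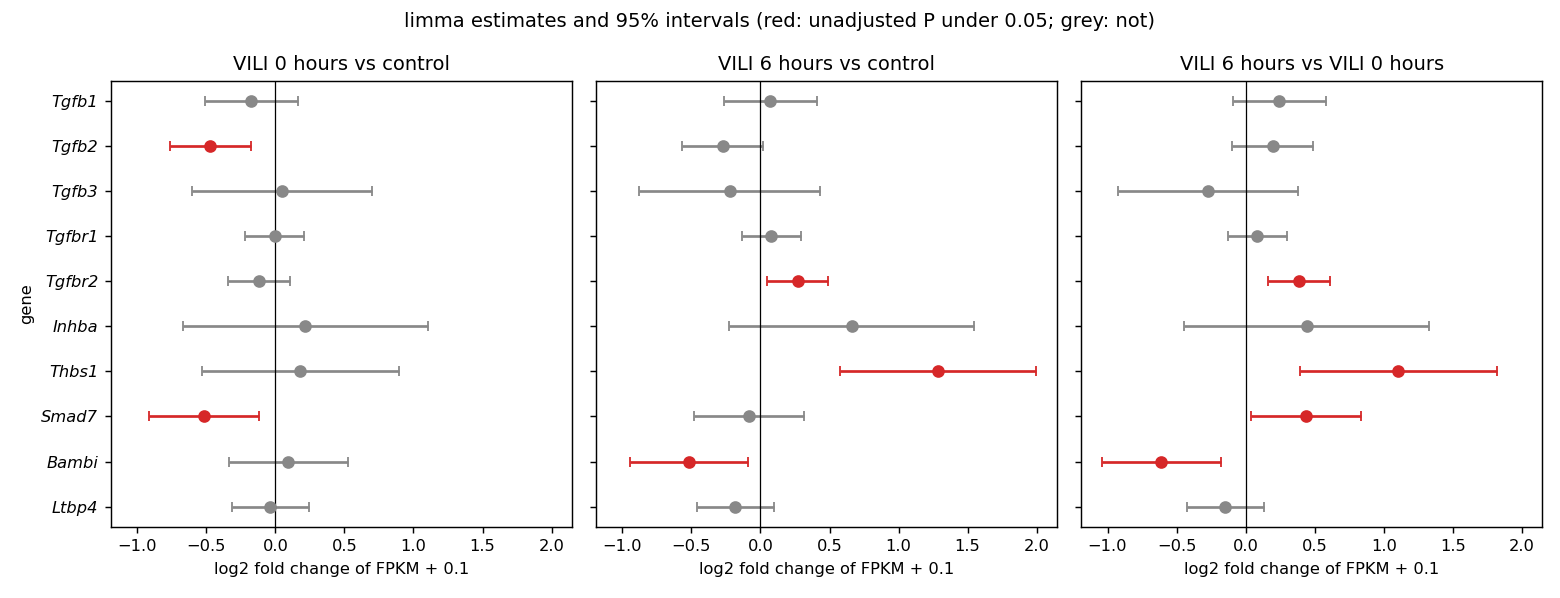
Log2 fold change of FPKM + 0.1 of each of the 10 genes in the 3 comparisons, with its 95% interval from limma, in red where the unadjusted P was under 0.05 and in grey where it was not. The interval of Thbs1 lies right of 0 in both comparisons of VILI 6 hours, and those of Tgfb1, Tgfb3, Tgfbr1, Inhba and Ltbp4 span 0 in all 3 comparisons.

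The ligand Tgfb1 (chr7:25687002-25705077, plus strand) was the most abundant of the TGF-beta genes in every library. It stood at 32.9, 27.7 and 28.3 FPKM in the control group, 28.3, 30.5 and 20.8 FPKM in VILI 0 hours and 34.4, 29.2 and 29.7 FPKM in VILI 6 hours. The ranges of the 3 groups overlapped, and VILI 0 hours replicate 3 was the lowest library. The difference from control was -0.17 (95% interval -0.51 to 0.16, adjusted p = 0.589) at VILI 0 hours and 0.07 (-0.27 to 0.41, adjusted p = 0.802) at VILI 6 hours, neither beyond the spread between replicates. Tgfb1 made up 53.6% to 67.0% of the summed FPKM of Tgfb1, Tgfb2 and Tgfb3 over the 9 libraries.

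Tgfb2 (chr1:186622792-186705989, minus strand), which encodes the TGF-beta2 ligand, fell directly after ventilation. The control libraries were at 11.6, 11.6 and 12.1 FPKM, those of VILI 0 hours at 9.24, 9.35 and 7.003 FPKM and those of VILI 6 hours at 9.86, 10.2 and 9.08 FPKM. All 6 libraries of ventilated mice lay below the lowest control. At VILI 0 hours the level was 0.721 times that of control, a log2 fold change of -0.47 (standard error (SE) 0.13, 95% interval -0.77 to -0.18, adjusted p = 0.123). This call held when each of the 9 libraries was left out, with log2 fold changes from -0.54 to -0.34. At VILI 6 hours the difference from control was -0.27 (-0.57 to 0.02, adjusted p = 0.260) and missed the threshold. The step between the ventilated groups was 0.20 (-0.10 to 0.49, adjusted p = 0.645). Without VILI 0 hours replicate 3, the lowest Tgfb2 library, the difference of VILI 6 hours from control was -0.27 and passed.

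Tgfb3 (chr12:86056745-86079041, minus strand) encodes the TGF-beta3 ligand. Its control libraries were at 9.91, 12.4 and 9.34 FPKM and those of VILI 0 hours at 11.2, 10.5 and 10.9 FPKM. In VILI 6 hours the 3 libraries spread over 14.7, 8.81 and 5.54 FPKM, and so held both the highest and the lowest of the 9 values. The difference of VILI 6 hours from control was -0.22 (-0.88 to 0.43, adjusted p = 0.668) over all libraries. It was -0.58 (adjusted p = 0.0595), past the threshold, without VILI 6 hours replicate 1, the library low in erythroid markers, and 0.12 without VILI 6 hours replicate 3, so that 1 library decided the sign. Against VILI 0 hours the difference was -0.27 (-0.93 to 0.38, adjusted p = 0.799), and -0.63 (adjusted p = 0.114), past the threshold, without VILI 6 hours replicate 1.

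Inhba (chr13:16011851-16031621, plus strand), the inhibin beta A gene whose product forms activin A, was the lowest of the 10 genes in every library. The control libraries were close together at 0.576, 0.609 and 0.553 FPKM. Those of VILI 0 hours were at 0.517, 0.629 and 0.992 FPKM and those of VILI 6 hours at 0.969, 0.512 and 1.78 FPKM, so that the spread grew and the ranges overlapped. The difference from control was 0.22 (-0.67 to 1.10, adjusted p = 0.817) at VILI 0 hours and 0.66 (-0.23 to 1.55, adjusted p = 0.349) at VILI 6 hours. Without VILI 6 hours replicate 2, the lowest of its group, the latter was 1.06 (adjusted p = 0.226) and passed. Without VILI 6 hours replicate 3, the highest of its group, it was 0.25 and did not pass. In the row with the highest mean alone, the step from VILI 0 hours to VILI 6 hours was -1.43, against 0.44 (-0.44 to 1.33, adjusted p = 0.751) for the sum of rows. For the sum, leaving out 1 library gave 0.04 to 0.85, past the threshold only without VILI 6 hours replicate 2.

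Thbs1 (chr2:118111876-118127133, plus strand) encodes thrombospondin 1, a matrix glycoprotein of platelets, endothelium and other cells that can activate latent TGF-beta. It showed the largest difference of the 10 genes at VILI 6 hours. The control libraries were at 33.0, 33.9 and 27.3 FPKM, those of VILI 0 hours at 38.9, 23.1 and 49.4 FPKM and those of VILI 6 hours at 49.5, 83.25 and 107.6 FPKM. Every VILI 6 hours library lay above every other library, the lowest of them by a margin of 49.5 to 49.4 FPKM, while those of VILI 0 hours fell on both sides of the controls. The VILI 6 hours level was 2.44 times that of control, a log2 fold change of 1.28 (SE 0.32, 95% interval 0.573 to 1.997, adjusted p = 0.0896). From VILI 0 hours to VILI 6 hours the fold was 2.15, a log2 fold change of 1.10 (0.39 to 1.82, adjusted p = 0.308). At VILI 0 hours the difference from control was 0.18 (-0.53 to 0.89, adjusted p = 0.809), within the spread of its replicates. Both calls at VILI 6 hours held with each of the 9 libraries left out, at 1.04 to 1.60 against control and 0.80 to 1.42 against VILI 0 hours. Without VILI 6 hours replicate 1 the values were 1.60 (adjusted p = 0.00600) and 1.42 (adjusted p = 0.044), in a fit in which 4370 and 356 of all 17131 genes had an adjusted p under 0.05.

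Markers of cells that carry thrombospondin 1 were read in the same libraries. The 6 platelet markers summed to 31.2 to 37.9 FPKM in control, 34.1 to 44.2 FPKM in VILI 0 hours and 29.2 to 61.4 FPKM in VILI 6 hours. The 2 VILI 6 hours libraries with the higher Thbs1 also had the higher platelet sum, and the other had the lowest platelet sum of all 9 libraries. None of the 6 platelet markers passed the threshold in VILI 6 hours vs control, and Gp1bb alone rose from VILI 0 hours (1.36, adjusted p = 0.294). The 5 endothelial markers summed to 833.5 to 879.1 FPKM in control, 828.5 to 1068 FPKM in VILI 0 hours and 760.5 to 975.0 FPKM in VILI 6 hours. Of the 5, Tie1 alone passed, as lower at VILI 6 hours than in control (-0.58, adjusted p = 0.0881) and than in VILI 0 hours (-0.42, adjusted p = 0.374). No marker of either list was at 0 in all libraries. The 4 monocyte markers summed to 52.4 to 56.6 FPKM in control, 45.3 to 121.9 FPKM in VILI 0 hours and 84.1 to 115.7 FPKM in VILI 6 hours, and 2 of them, Ly6c2 (1.33, adjusted p = 0.107) and F13a1 (1.70, adjusted p = 0.125), rose in VILI 6 hours vs control and none between the ventilated groups. The neutrophil sum was 446.0, 938.6 and 1862 FPKM in the VILI 6 hours libraries, in the same order as Thbs1. In VILI 0 hours it was 541.1, 967.2 and 793.1 FPKM, and its order differed from that of Thbs1. The part of platelets, endothelium, monocytes and neutrophils in the Thbs1 result was not tested.

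**Figure D2:**
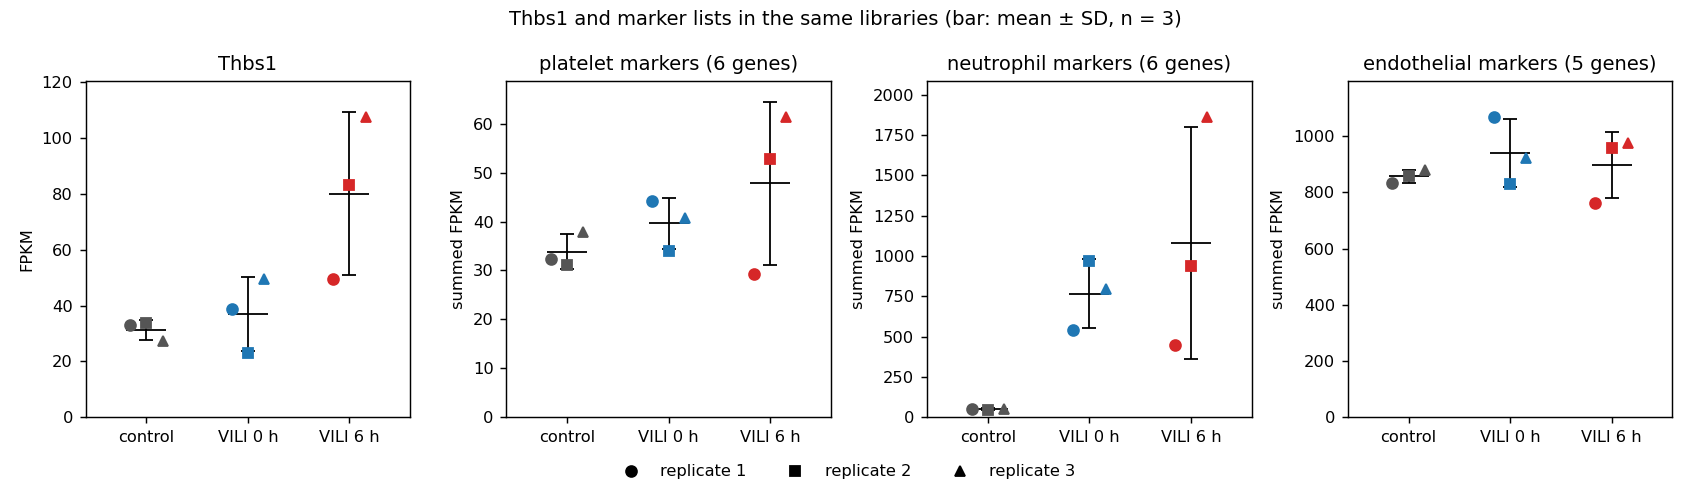
FPKM of Thbs1 and the summed FPKM of platelet, neutrophil and endothelial markers in each library, with the replicate as the symbol and bars for mean ± SD (n = 3). Thbs1 reached 49.5 to 107.6 FPKM in VILI 6 hours. The neutrophil sum was above all controls in both VILI groups, and the endothelial sum overlapped between groups.

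Ltbp4 (chr7:27305136-27337692, minus strand) encodes latent TGF-beta binding protein 4, which tethers latent TGF-beta to elastic fibers. It had the highest level of the 10 genes in every library but one, VILI 6 hours replicate 3, where Thbs1 was above it. The libraries stood at 117.2, 100.6 and 96.2 FPKM in the control group, 106.3, 105.2 and 94.3 FPKM in VILI 0 hours and 90.5, 106.5 and 80.2 FPKM in VILI 6 hours. All groups overlapped. The difference from control was -0.04 (-0.31 to 0.24, adjusted p = 0.915) at VILI 0 hours and -0.18 (-0.46 to 0.09, adjusted p = 0.399) at VILI 6 hours. Without VILI 6 hours replicate 2, the highest of its group, the latter was -0.29 (adjusted p = 0.313) and passed. It was -0.09 without VILI 6 hours replicate 3 and -0.10 without control replicate 1, neither past the threshold.

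Tgfbr1 (chr4:47353222-47414931, plus strand), the type I receptor kinase, varied least. Its 9 libraries spanned 17.6 to 21.6 FPKM, and the ranges of the groups overlapped. The difference from control was -0.01 (-0.22 to 0.21, adjusted p = 0.982) at VILI 0 hours and 0.08 (-0.14 to 0.29, adjusted p = 0.650) at VILI 6 hours, the narrowest intervals of the 10 genes.

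Tgfbr2 (chr9:116084293-116175360, minus strand), the type II receptor kinase that binds TGF-beta first, rose at VILI 6 hours. The control libraries were at 52.3, 54.6 and 48.0 FPKM, those of VILI 0 hours at 52.9, 45.6 and 44.4 FPKM and those of VILI 6 hours at 58.1, 63.0 and 65.6 FPKM. All VILI 6 hours libraries lay above all other libraries. The level was 1.20 times that of control, a log2 fold change of 0.27 (SE 0.10, 95% interval 0.05 to 0.49, adjusted p = 0.176), and 1.31 times that of VILI 0 hours (0.39, 0.17 to 0.61, adjusted p = 0.263). At VILI 0 hours the difference from control was -0.12 (-0.34 to 0.10, adjusted p = 0.574). The call against VILI 0 hours held with each library left out in the fit over genes. That against control was lost without control replicate 3 (0.22), without VILI 6 hours replicate 2 (0.26) and without VILI 6 hours replicate 3 (0.23), and was 0.32 (adjusted p = 0.0488) without VILI 6 hours replicate 1.

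Smad7 (chr18:75367529-75395935, plus strand), the inhibitory SMAD that turns off the type I receptor, fell directly after ventilation. The control libraries were at 33.9, 35.1 and 29.8 FPKM, those of VILI 0 hours at 29.3, 22.8 and 18.02 FPKM and those of VILI 6 hours at 32.3, 35.2 and 26.3 FPKM. VILI 0 hours lay below control without overlap, although its highest library and the lowest control were 29.3 and 29.8 FPKM. The level at VILI 0 hours was 0.699 times that of control, a log2 fold change of -0.52 (SE 0.18, 95% interval -0.92 to -0.12, adjusted p = 0.191). It rose to VILI 6 hours by 1.35 times (0.44, 0.04 to 0.84, adjusted p = 0.448), where it differed from control by -0.08 (-0.48 to 0.32, adjusted p = 0.811). The fall was -0.47 when control replicate 2 was left out and -0.34 when VILI 0 hours replicate 3 was, both short of the threshold. The rise lost its call without VILI 0 hours replicate 2 (0.43), VILI 0 hours replicate 3 (0.27), VILI 6 hours replicate 1 (0.41) or VILI 6 hours replicate 2 (0.35). The Smad7 calls were thus less firm than that of Tgfb2.

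Bambi (chr18:3507923-3516404, plus strand) encodes a transmembrane protein that resembles a type I receptor without a kinase domain and blocks signalling. It was lower at VILI 6 hours. The control libraries were at 4.002, 4.62 and 4.41 FPKM, those of VILI 0 hours at 4.39, 4.11 and 5.51 FPKM and those of VILI 6 hours at 3.74, 2.97 and 2.42 FPKM. All VILI 6 hours libraries lay below all other libraries. Bambi fell to 0.699 times the control level (log2 fold change -0.52, SE 0.19, 95% interval -0.95 to -0.09, adjusted p = 0.177) and to 0.655 times that of VILI 0 hours (-0.61, -1.04 to -0.18, adjusted p = 0.344). At VILI 0 hours it differed from control by 0.09 (-0.34 to 0.52, adjusted p = 0.842). Against control the call was lost without control replicate 2 (-0.47), control replicate 3 (-0.51), VILI 6 hours replicate 2 (-0.51) or VILI 6 hours replicate 3 (-0.37). Without VILI 6 hours replicate 1 it was -0.67 (adjusted p = 0.0254). In the fit over genes, the call against VILI 0 hours held with each library left out.

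**Figure D3:**
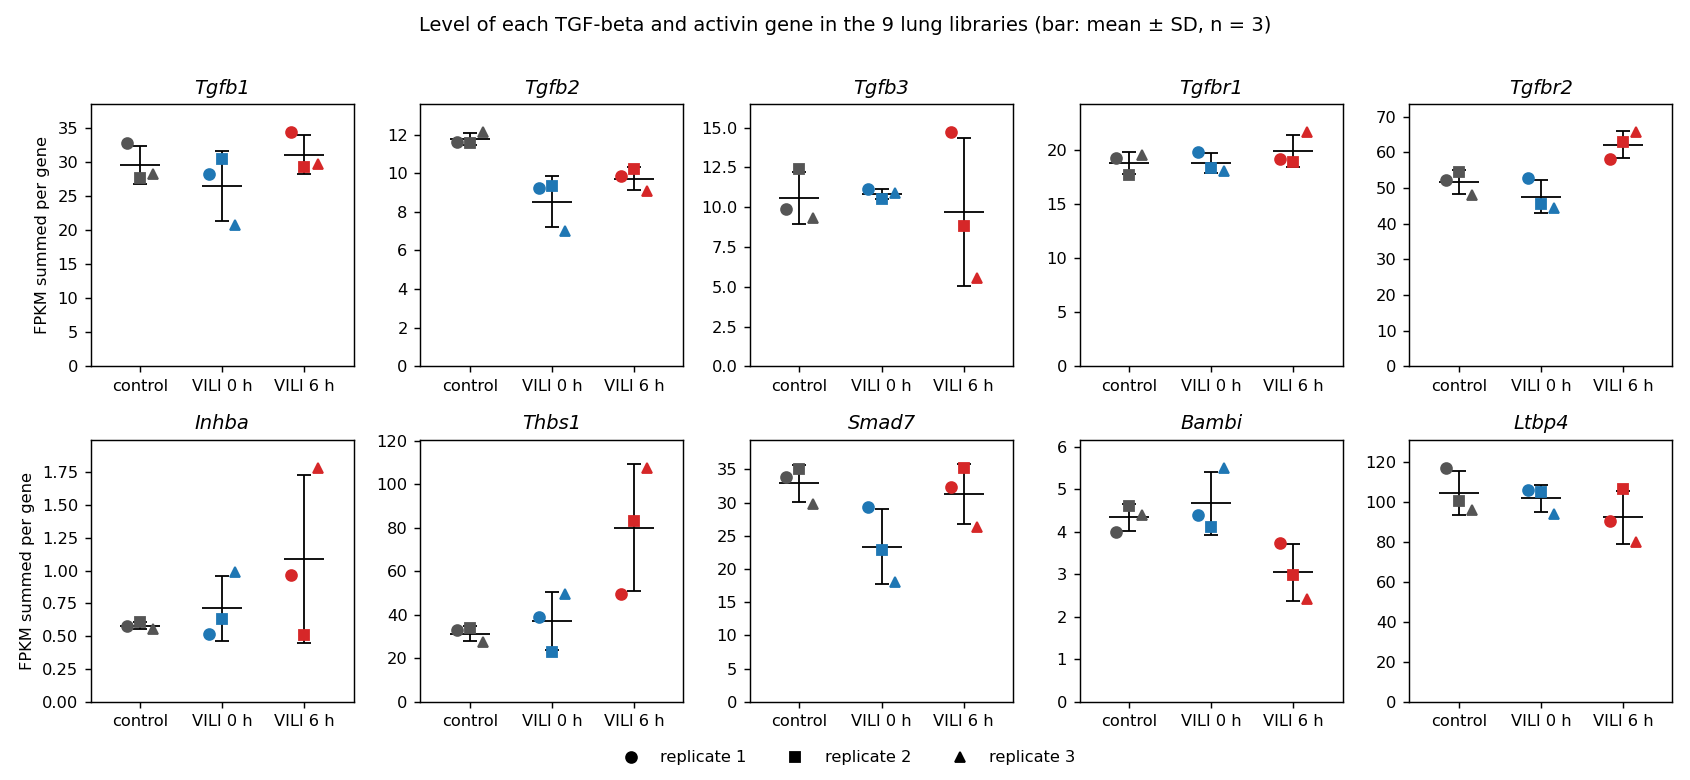
FPKM summed per gene of each of the 10 genes in the 9 libraries, with the replicate as the symbol and bars for mean ± SD (n = 3), on axes that start at 0. VILI 6 hours lies above the other groups for Thbs1 and Tgfbr2 and below them for Bambi, and VILI 0 hours lies below control for Tgfb2 and Smad7.

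Without VILI 6 hours replicate 1, Thbs1, Tgfbr2 and Bambi passed in both comparisons of VILI 6 hours, Tgfb3 passed as well and Smad7 did not pass in either. Against control, Tgfb1 was then at -0.00356, Tgfb2 at -0.29, Inhba at 0.66, Ltbp4 at -0.17, Tgfbr1 at 0.10 and Smad7 at -0.11, none of them past the threshold. All genes tested shifted with this library too: 6945 passed in VILI 6 hours vs control without it, against 3594 with it, and 4370 had an adjusted p under 0.05, against 129. Between the ventilated groups 356 did, against 0. The reading of positions has a limit for some of the 10 genes. Genes on the opposite strand overlap Tgfb2, Tgfb3, Inhba and Thbs1 in the annotation (Gm26169 and Gm29491, Gm37804, Gm48008 and Ttll5, B230303A05Rik and Gm48444, and Gm29233), and the paper names a directional (strand-keeping) library kit where the sample labels name another. Whether the FPKM were estimated with the strand is not given in the sources used here, so reads of these pairs may not have been told apart.

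The table holds 24 transcript rows for the 10 genes, of which 20 had a mean of at least 0.1 FPKM and were tested among 37300 rows. In VILI 0 hours vs control 3 of the 20 fell and 0 rose (11.0% of all rows passed, 4.71% as higher and 6.31% as lower), with VILI 6 hours against control 3 rose and 2 fell (13.2%, as 5.73% higher and 7.51% lower), and between the ventilated groups 3 rose and 2 fell (7.4%, as 3.82% higher and 3.58% lower). None had an adjusted p under 0.05, where 0.0509%, 0.0751% and 0.0214% of all rows did. For Tgfb2, Smad7 and Tgfbr2 the row that passed was the main one. That of Tgfbr2 lost its call against VILI 0 hours without VILI 0 hours replicate 2 (0.335) or 3 (0.333). Its call against control was lost on leaving out any 1 control library, or replicate 2 or 3 of either VILI group. The row of Bambi lost its call against VILI 0 hours without VILI 0 hours replicate 3 (-0.487). Row 2 of 2 of Tgfb2 fell at VILI 0 hours (-0.55, adjusted p = 0.282), and row 1, at 1.64 to 2.84 FPKM in control and VILI 0 hours, differed by -0.20 (-1.74 to 1.35). Row 3 of 4 of Smad7, at 17.5 to 34.9 FPKM, followed the summed level. Beyond the losses given for the sum, its fall was lost without control replicate 1 (-0.512) and its rise without control replicate 1 or 2 (0.46). A minor Smad7 row was at 0.374, 0.196 and 0.208 FPKM in the VILI 0 hours libraries and listed at 0 in the other 6. The rows carry no transcript ID, so they could not be tied to a known isoform.

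The summed level of Ltbp4 was divided differently among its rows from library to library. Row 4 of 6 held 95.5%, 95.4% and 79.8% of its FPKM in control, 87.1%, 73.3% and 75.5% in VILI 0 hours and 13.7%, 81.1% and 71.7% in VILI 6 hours. Row 5 of 6 held most of the rest, from 2.39% in control replicate 1 to 86.3% in VILI 6 hours replicate 1. The switch in that library was therefore not shared by the other 2 of its group. Row 5 rose in VILI 6 hours vs control (2.61, adjusted p = 0.291), and lost the call without VILI 6 hours replicate 1 (1.99), control replicate 1 (2.17) or control replicate 2 (2.13). Row 3 fell in both comparisons with control (-2.82 and -2.81), yet it was at 2.17, 1.35 and 0.0174 FPKM in control and so rested on 2 libraries. Without control replicate 1 the values were -2.0 and -1.99, and without control replicate 2 they were -2.33 and -2.31, none of them past the threshold. Row 2 was at 6.47 and 5.11 FPKM in 2 VILI 0 hours libraries and at most 0.655 FPKM in the others. The Inhba rows likewise took turns: row 1 was listed at 0 in 4 libraries and row 2 in another 3, while their sum was above 0.5 FPKM in all 9.

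**Figure D4:**
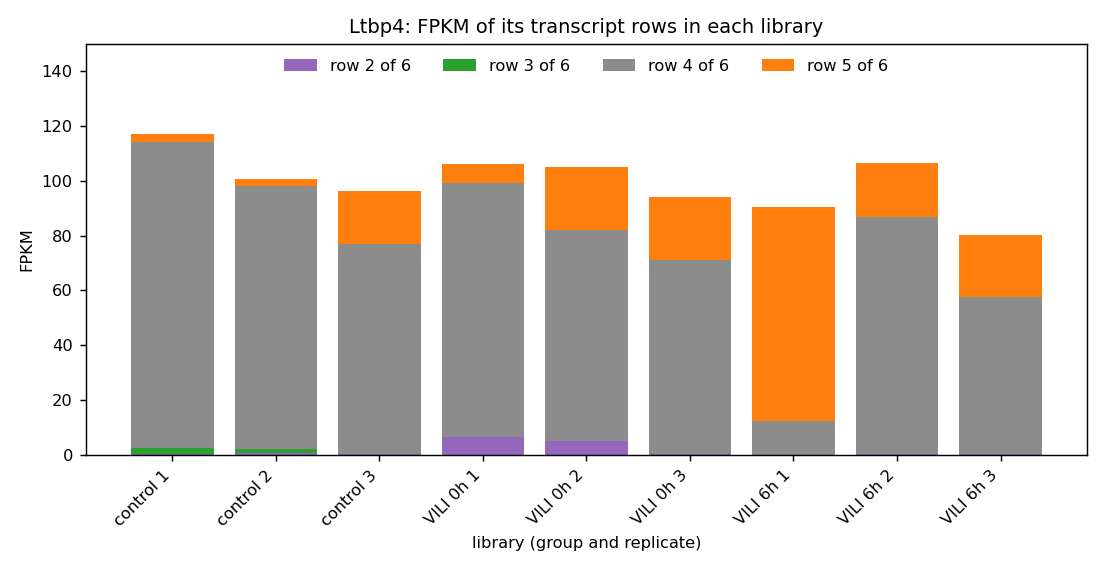
FPKM of the Ltbp4 transcript rows stacked by library, with rows 1 and 6 of 6 at 0 throughout. The stack reaches 80.2 to 117.2 FPKM in all libraries, while row 5 makes up 86.3% of it in VILI 6 hours replicate 1 and at most 28.0% in the others.

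Beyond the 10 genes, 64 genes of the pathway were listed by role, and 59 passed the filter. In VILI 0 hours vs control 9 rose and 11 fell, with VILI 6 hours against control 12 rose and 11 fell, and between the ventilated groups 10 rose and 2 fell, where 17.1%, 21.0% and 10.3% of all genes tested passed. After adjustment 0, 2 and 0 remained under 0.05, the 2 being Tgfbi and Timp1. The medians of the 59 genes were -0.10, 0.12 and 0.05, beside -0.08, -0.10 and -0.03 over all genes tested. Of the 23 calls against control 20 were kept without VILI 6 hours replicate 1, and of the 12 between the ventilated groups 10 were. Leaving out each library in turn, 8 of 20, 11 of 23 and 8 of 12 calls held throughout, and the genes named in the next paragraphs as risen or fallen are those that did unless said otherwise.

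Of the ligands, Inhbb, the inhibin beta B gene of activin B, rose from VILI 0 hours (4.22, 3.30 and 4.01 FPKM) to VILI 6 hours (5.17, 10.85 and 17.97 FPKM) by a log2 fold change of 1.37 (95% interval 0.54 to 2.20, adjusted p = 0.283). Control was at 4.64 to 5.84 FPKM, a range that holds VILI 6 hours replicate 1. Gdf11 fell at VILI 6 hours from 0.877 to 1.10 FPKM in control to 0.409 to 0.636 FPKM (-0.82, adjusted p = 0.123). Inhbc, Inhbe, Mstn and Nodal were under the minimum level. The extracellular antagonist Fst, which encodes the activin-binding protein follistatin, rose at both times. It stood at 0.827 to 1.20 FPKM in control, 2.24 to 4.55 FPKM in VILI 0 hours (1.55, adjusted p = 0.0656) and 2.14 to 4.01 FPKM in VILI 6 hours (1.46, adjusted p = 0.0657). Dcn, the gene of the TGF-beta-binding proteoglycan decorin, rose at VILI 0 hours (0.39, adjusted p = 0.0802) and fell from there to VILI 6 hours (-0.55, adjusted p = 0.131). At VILI 6 hours it differed from control by -0.16, short of the threshold. Dcn is also among the 5 fibroblast markers, whose sum was 411.6 to 480.5 FPKM in control, 380.5 to 434.8 FPKM in VILI 0 hours and 362.4 to 481.5 FPKM in VILI 6 hours.

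Among 12 other genes listed under latency and activation, Furin, the protease gene that cleaves the TGF-beta propeptide, rose from 29.2 to 31.0 FPKM in control to 40.1 to 48.2 FPKM at VILI 0 hours (0.53, adjusted p = 0.125) and 38.6 to 58.2 FPKM at VILI 6 hours (0.72, adjusted p = 0.0628). Ltbp2, a relative of Ltbp4, fell at both times (-0.41, adjusted p = 0.127, and -0.50, adjusted p = 0.0813). Itgb8, an integrin chain that releases latent TGF-beta, also passed as lower at both times (-0.74 and -0.64), but both calls were lost without control replicate 2, and the later one also without VILI 6 hours replicate 1 or 2. None of the 12 passed between the ventilated groups. Among 8 other receptors and co-receptors, Acvr1b, the activin type I receptor, rose at VILI 6 hours to 19.98, 29.2 and 31.7 FPKM from 16.2 to 17.9 FPKM in control (0.65, adjusted p = 0.0896), and also against VILI 0 hours (0.63, adjusted p = 0.263). Eng, the endothelial co-receptor endoglin, rose from 98.3 to 107.2 FPKM at VILI 0 hours to 126.4 to 181.8 FPKM at VILI 6 hours (0.54, adjusted p = 0.246). Its control libraries were at 124.5 to 144.7 FPKM, and VILI 6 hours differed from them by 0.17, short of the threshold.

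The SMAD genes Smad2 and Smad3 rose from VILI 0 hours to VILI 6 hours (0.35, adjusted p = 0.345, and 0.49, adjusted p = 0.329), as did the inhibitory Smad6 (0.46, adjusted p = 0.320), in the same comparison in which Smad7 rose. With the highest row of Smad2 alone in place of the sum, its value was -0.04. At VILI 6 hours Smad2 and Smad6 each differed from control by 0.18, short of the threshold. Smad3 passed against control (0.34), a call lost without several of the libraries. Neither the fall nor the rise of Smad7 held with each library left out. Directly after ventilation, Pmepa1 and Tgif2, a feedback inhibitor and a SMAD corepressor, fell alongside Smad7 (-0.41, adjusted p = 0.133, and -0.95, adjusted p = 0.0872). Nedd4l, a ubiquitin ligase gene, rose (0.65, adjusted p = 0.123). Of the 12 other intracellular inhibitors and feedback genes, 1 rose and 3 fell at VILI 0 hours, 1 rose and 3 fell at VILI 6 hours against control, and 2 rose and 0 fell between the ventilated groups. Of all genes tested, 7.02% rose and 10.1% fell in the first of these comparisons, 7.91% and 13.1% in the second and 5.02% and 5.25% in the last.

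Of 15 genes listed as targets of the pathway, 3 rose and 2 fell at VILI 0 hours, 4 rose and 3 fell at VILI 6 hours against control, and 3 rose and 1 fell between the ventilated groups, beside the 17.1%, 21.0% and 10.3% of all genes tested that passed. Tgfbi, a matrix adhesion gene, rose from 21.4 to 22.5 FPKM in control to 30.7 to 46.0 FPKM at VILI 0 hours (0.74, adjusted p = 0.0863) and 46.0 to 65.6 FPKM at VILI 6 hours (1.23, adjusted p = 0.0227). Timp1, an inhibitor of matrix metalloproteinases, rose from 1.62 to 3.08 FPKM in control to 8.90, 12.5 and 30.5 FPKM at VILI 6 hours (2.56, adjusted p = 0.0357), and also rose from VILI 0 hours (2.14, adjusted p = 0.169). Id1, a transcriptional regulator gene, was at 51.7, 58.7 and 52.3 FPKM in control and 59.9, 109.0 and 111.9 FPKM at VILI 6 hours (0.73, adjusted p = 0.125). Lox, the collagen cross-linking enzyme, was at 13.5 to 20.04 FPKM in control and 19.4, 129.4 and 156.5 FPKM at VILI 6 hours (2.13, adjusted p = 0.135), with replicate 1 inside the control range. Without that replicate the Lox value was 3.08 (adjusted p = 0.000227). Lower values were also found, as the fibrillar collagen gene Col3a1 fell at VILI 6 hours (-0.55, adjusted p = 0.109), and so did Postn, the periostin gene (-0.45, adjusted p = 0.0899).

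The calls that were lost without at least 1 library are given by name and range. At VILI 0 hours they were Ccn2, Lox, Fstl3 and Tgfbr3, higher by 0.45 to 1.87, and Col1a2, Col3a1, Eng, Gdf11, Itgb8, Ldlrad4, Lefty1 and Zfyve9, at -1.08 to -0.26. At VILI 6 hours against control they were Inhbb, Nedd4l, Smad3, Smad4 and Tgfbr3, higher by 0.21 to 0.97, and Acvr2a, Col1a2, Itgb8, Ldlrad4, Ltbp3, Smurf2 and Tgif2, at -0.64 to -0.30. Between the ventilated groups they were Fn1, Pmepa1 and Tgfbi, higher by 0.29 to 0.52, and Postn, at -0.28. Fn1, the fibronectin gene, was at -0.12 when only its highest row was used.

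**Figure D5:**
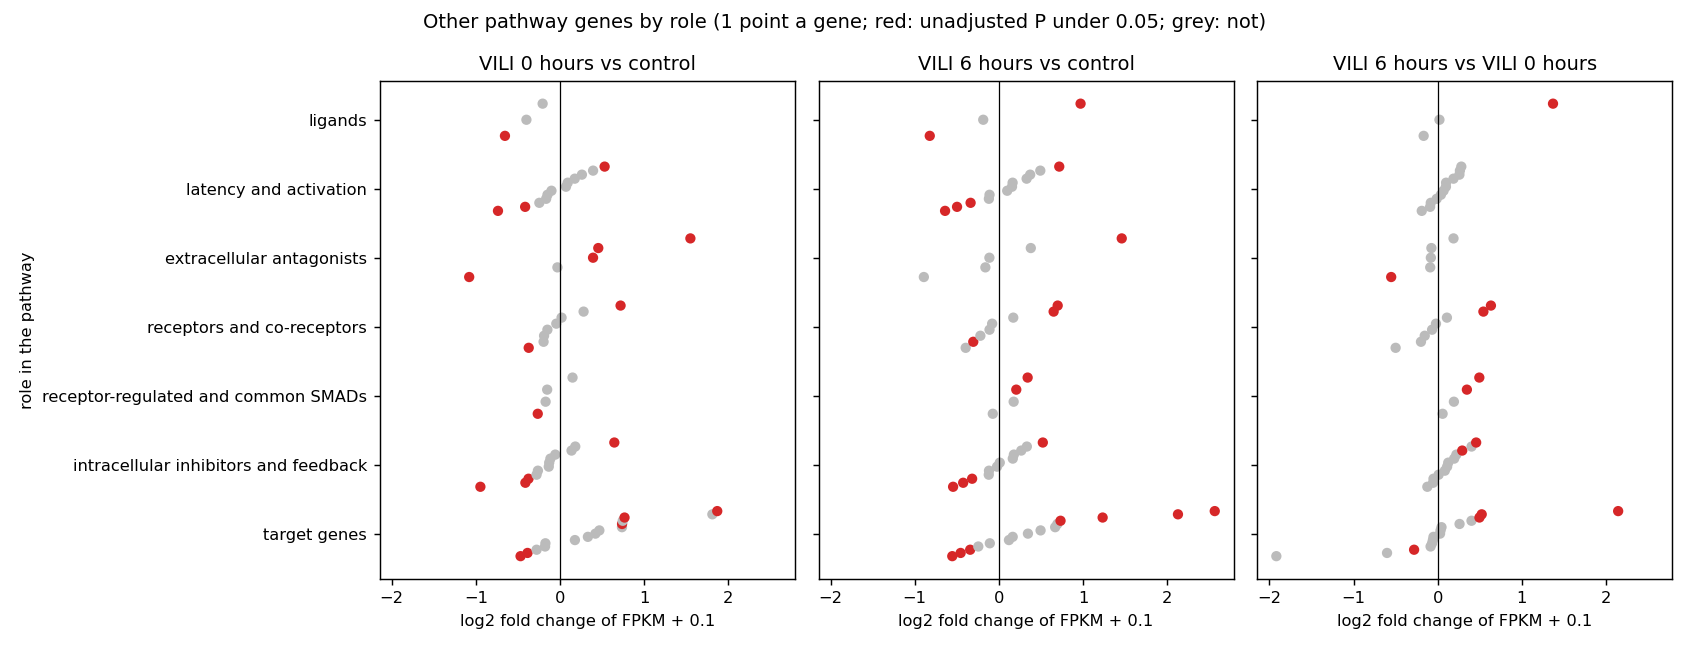
Log2 fold change of FPKM + 0.1 of the 59 other pathway genes, 1 point a gene, grouped by role for the 3 comparisons, in red where the unadjusted P was under 0.05. In every role with at least 8 genes, risen and fallen genes stand side by side in both comparisons with control, and between the ventilated groups 10 red points lie right of 0 and 2 left.

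The genes whose levels followed those of the 10 most closely were taken from 13069 protein-coding genes by Pearson r over the 9 libraries, which share their groups and their cell makeup, so that r is a description only. For Thbs1 they included Hyal2 (r = 0.956) and Marveld3 (0.947), and for Tgfbr2 they were Synpo (0.964), Shb (0.964) and Lrrc8c (0.953). Cnksr3 (0.970), Spns2 (0.956) and Cbfa2t2 (0.950) were closest to Smad7, and Lyplal1 (0.977), Pcmtd1 (0.958) and Gulp1 (0.957) to Bambi. Closest to Tgfb2 were Chst1 (0.969), Bend7 (0.963) and Sdk1 (0.959). The same measure gave Zc3h12d (0.935), Bicdl1 (0.926) and Esyt1 (0.921) for Tgfb1, and 5330417C22Rik (0.962), Myrf (0.960) and Elf5 (0.956) for Tgfb3. For Tgfbr1 it gave Mcm9 (0.936), Ythdf3 (0.916) and Lgals3bp (0.909), for Inhba it gave Chst11 (0.964), Bdkrb1 (0.938) and Dyrk3 (0.930), and for Ltbp4 it gave Tmem181a (0.930), Dgkq (0.930) and Ttc28 (0.924). None of these genes is among the 64 listed for the pathway.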

How the data were processed

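Whole-lung total RNA was sequenced by the authors, 9 libraries in 3 groups named by the sample labels. The labels and the paper name different library kits and sequencers. Per the paper and the submitters' notes, the authors removed low-quality reads, aligned with TopHat2 2.0.9 (Bowtie2 2.0.6) to GRCm38, assembled transcripts and deposited FPKM per transcript from Cuffdiff 2.1.1. These FPKM are normalized isoform estimates, not counts, and the depth is not known from them, so no count test was run. The paper's supplement lists the total and mapped reads of each library. The table holds 60108 rows.

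Gene IDs were matched to GENCODE M21 (23503 of 23713) and FPKM summed per gene. The limma package 3.58.1 (R 4.3.3) was run with lmFit and a trended eBayes step on log2(FPKM + 0.1) of genes with a mean of at least 0.1 FPKM, in 1 fit of the 9 libraries with group as the only factor, and likewise on transcript rows. Log2 fold changes understate changes of low genes. Each P-value sets a difference between groups against the spread of mice within groups, pooled over the 9 libraries and moderated across genes. The 10 genes, the pathway and marker lists and the tests were chosen with earlier results of these data known. Named were the 10 genes, pathway genes that passed, and per gene the 3 protein-coding genes with the highest r among those with a mean of at least 1 FPKM, of which 1 is not reported here. The procedure was tested on simulated data. Alternatives were other pseudocounts (0.01 and 1), other filters, libraries centred on their median, the highest row of a gene, fits of 6 libraries, an eBayes step with no trend, the replicate number as a block and each library left out. Protein sequences and promoter windows of 4 genes were not used here. Python 3.11.15, numpy 2.4.6, pandas 2.3.3 and matplotlib 3.10.9 were the other tools.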

Additional observations from a re-analysis of the deposited data

Results flagged for a closer look

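Between VILI 0 hours and VILI 6 hours, 4 of the 10 genes differed when the ventilated groups were set against each other directly (limma, unadjusted P under 0.05), where 10.3% of all genes tested did. The log2 fold change from VILI 0 hours to VILI 6 hours was 1.10 for Thbs1, 0.39 for Tgfbr2, 0.44 for Smad7 and -0.61 for Bambi. No adjusted p was under 0.05 here: in the order given they were 0.308, 0.263, 0.448 and 0.344. The Smad7 call was lost without VILI 0 hours replicate 2 or 3 or VILI 6 hours replicate 1 or 2, with values of 0.27 to 0.43. With 3 libraries a group, single libraries far from the others of their group were not tested for.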

How the results depend on the processing

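For the 10 genes, their transcript rows and the other pathway genes, 143 of the recomputed counts of calls stayed within 1.5 times of the reported count and 16 were lower. Of the recomputed single values, 1494 kept their sign and their side of the threshold, 219 lost the call, 7 gained it and 21 changed sign. Thbs1 passed in both comparisons of VILI 6 hours and Tgfb2 in VILI 0 hours vs control under every alternative run. Leaving out 1 library gave 1 to 2 of the 10 genes in VILI 0 hours vs control, 1 to 4 in VILI 6 hours vs control and 3 to 4 between the ventilated groups, while 1826 to 4223, 2285 to 6945 and 1266 to 3975 of all 17131 genes passed in the same fits. For the other pathway genes the ranges were 10 to 24, 13 to 27 and 10 to 15, and for transcript rows of the 10 genes 1 to 4, 1 to 5 and 2 to 7. With only the 6 libraries compared, or eBayes without a trend, 3 transcript rows passed between the ventilated groups in place of 5. In all genes tested, 4816 passed in VILI 0 hours vs control with only the 6 libraries compared, against 2925, and 1083 between the ventilated groups, against 1760. Without VILI 6 hours replicate 1 the counts were 4223, 6945 and 3975, against 2925, 3594 and 1760. The cause was not tested.

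Centring each library on its median moved the median of all genes from -0.10 to 0.0053 in VILI 6 hours vs control and from -0.08 to 0.0069 in VILI 0 hours vs control. The calls then split into 1868 higher and 1680 lower in place of 1355 and 2239, and 1549 and 1358 in place of 1203 and 1722. The same genes of the 10 passed. Of the genes whose value changed sign in a comparison, Smad2 and Fn1 had passed in it. With centring, Tgfbr1 (0.0782) and Ltbp4 (0.05) in VILI 0 hours vs control and Smad7 (0.0267) in VILI 6 hours vs control turned. With the highest row of a gene alone, the comparison between the ventilated groups turned for Inhba (-1.43), Smad2 (-0.0368) and Fn1 (-0.122), and Tgfbr1 was at 0.00583 in VILI 0 hours vs control. Leaving out 1 library gave values on both sides of 0 in VILI 0 hours vs control for Tgfb3 (-0.033 to 0.171), Tgfbr1 (-0.0509 to 0.0217), Inhba (-0.0178 to 0.394), Thbs1 (-0.06 to 0.488), Bambi (-0.0288 to 0.179) and Ltbp4 (-0.0934 to 0.049). The same held with VILI 6 hours against control for Tgfb1 (-0.00356 to 0.147), Tgfb3 (-0.577 to 0.118) and Smad7 (-0.17 to 0.0388), and between the ventilated groups for Tgfb3 (-0.626 to 0.0697). The cause was not tested.

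Deviations from the group means correlated at -0.25 to 0.03 between same-numbered libraries and at -0.15 to 0.20 between those with different numbers. In groups of 3 these values cannot show whether the replicate numbers in the sample titles pair the samples. With the replicate number as a block, 2, 3 and 4 of the 10 genes passed, as without it, and 3 transcript rows in place of 5 in VILI 6 hours vs control. Of the other pathway genes 20, 19 and 12 passed with the block, and of all genes tested 2618, 3157 and 1512, against 2925, 3594 and 1760 without it.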
